A study of Homo sapiens
Mus musculus with 17 samples.

Results

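The genes described here are 10 mouse genes that mark blood vessel endothelium or build its cell junctions: Cdh5, Pecam1, Emcn, Mmrn2, Cldn5, Esam, Clec14a, Robo4, Eng and Vwf. They were chosen by name, with earlier results of these data known, and all 10 were found among the 23337 genes of the mouse table. They were measured in 17 tumours grown from VM-CUB-1, an established line of human bladder cancer cells, in athymic nude mice (Hsd:Athymic Nude-Foxn1nu), a strain that lacks mature T cells. Every tumour in all groups is of this single line and in this single host strain. Reads were assigned to mouse (the host) and human (the cancer cells) by mapping to each genome.

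All tumours were taken after 7 days of treatment. The vehicle group (n = 4) received 0.5% methylcellulose with 0.1% Tween80. The alpelisib group (n = 4) received alpelisib, also called BYL719, an inhibitor of the alpha isoform of phosphoinositide 3-kinase, at 25 mg/kg. The nintedanib group (n = 5) received nintedanib, an inhibitor of the VEGF, FGF and PDGF receptor tyrosine kinases, at 40 mg/kg. Its sample titles name 3 responders and 2 non-responders, while the design text of the series gives these numbers the other way round; the titles were followed. The combination group (n = 4) received both drugs at these doses. The labels do not say whether each tumour came from a different mouse, and do not give the animals' ages; the p-values thus cover only the variation among the samples at hand, some of which may be technical. One label field calls the material PDX although the cells are named as a cell line. The human reads carried the keratins of a basal urothelial line, with normalized counts of 42539 to 164041 for KRT5.

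Endothelial cells line blood vessels and hold each other through adherens junctions, built on VE-cadherin, and tight junctions, built on claudins and JAM-like proteins. VEGF-A, acting through VEGFR2, keeps the endothelium of growing tumour vessels alive and loosens these junctions, and nintedanib blocks this receptor among others. Because the junction and surface genes listed above are transcribed mainly in endothelium, their summed level in a mixed tissue follows both the number of endothelial cells and the RNA each one makes. In these bulk samples, fewer endothelial cells and less RNA per cell cannot be told apart. The levels given below are also relative to the other mouse reads of a library, so RNA from other host cells enters them too. Its part was not tested.

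Values are normalized counts, that is, reads for a gene divided by a size factor for the library. The libraries held 7429753 to 25654879 human reads and 2271764 to 7438823 mouse reads. Between 1.726% and 72.92% of the mouse reads fell on only Rn45s, the ribosomal RNA precursor, and Lars2, and this share was over 40% in Vehicle 3, Alpelisib 3, Combination 1 and Combination 4. No group had a label for batch or date. All 10 genes passed the filter on low values (a mean of at least 10) and were tested with 11831 mouse genes by limma on log2(normalized count + 1), with Benjamini-Hochberg adjustment over all of them and a threshold of 0.05. The lowest raw mouse count of any of the 10 genes in any library was 24 reads.

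The 10 genes together stood at about 48% of their vehicle level in the tumours given nintedanib, alone or with alpelisib, and at 85.7% with alpelisib alone. This panel level is the geometric mean over the 10 genes, as a percentage of the vehicle group. In vehicle tumours 1 to 4 it was 98.6, 80.2, 129 and 97.8%. In alpelisib tumours 1 to 4 it was 48.9, 100.5, 101.9 and 107.6%. Alpelisib 1 thus stood apart from the other alpelisib tumours, which lay within the range of the vehicle group. The nintedanib responders 1 to 3 had 38.1, 64.2 and 53.5%, and the non-responders 1 and 2 had 52.9 and 36.7%. Combination tumours 1 to 4 had 41.1, 60.2, 50.7 and 41.0%. All 9 tumours that received nintedanib lay below the lowest vehicle tumour, and Alpelisib 1 lay among them.

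**Figure D1:**
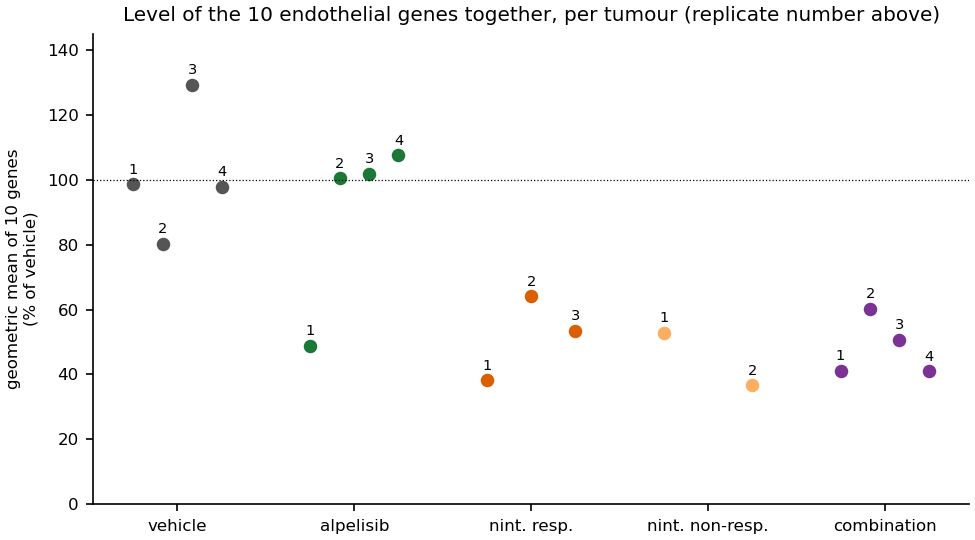
Panel level of the 10 endothelial genes in each of the 17 libraries, as a percentage of the geometric mean of the vehicle group, with 1 point per library. The 9 libraries with nintedanib lie between 36.7% and 64.2%, while 7 of the 8 others lie between 80.2% and 129% and Alpelisib 1 lies at 48.9%.

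With nintedanib, all 10 genes had lower mean levels, and 4 of them fell past the threshold: the junction genes Cdh5, Pecam1 and Cldn5, and the matrix glycoprotein gene Mmrn2. This count comes from the comparison of the 9 tumours with nintedanib against the 8 without it, averaged over the presence and absence of alpelisib, in which 0.499% of all tested genes were called lower and 0.101% higher. The median log2 change of the 10 genes was -0.89, against 0.0018 over all tested genes. At an unadjusted p under 0.05, 9 of the 10 genes were lower, compared with 4.09% of all genes. For none of the 10 genes did every tumour with nintedanib lie below every tumour without it (0.169% of all genes), but with Alpelisib 1 set aside, a choice made after its values were seen, this held for 6 of the 10 (0.558% of all genes): Cdh5, Pecam1, Emcn, Mmrn2, Cldn5 and Esam. Without the 4 libraries rich in Rn45s and Lars2, limma called 0 of the 10 (adjusted p from 0.161 for Cldn5 upwards), and the median change was -0.77. In that fit limma called only 1 of all tested genes lower and 0 higher.

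**Figure D2:**
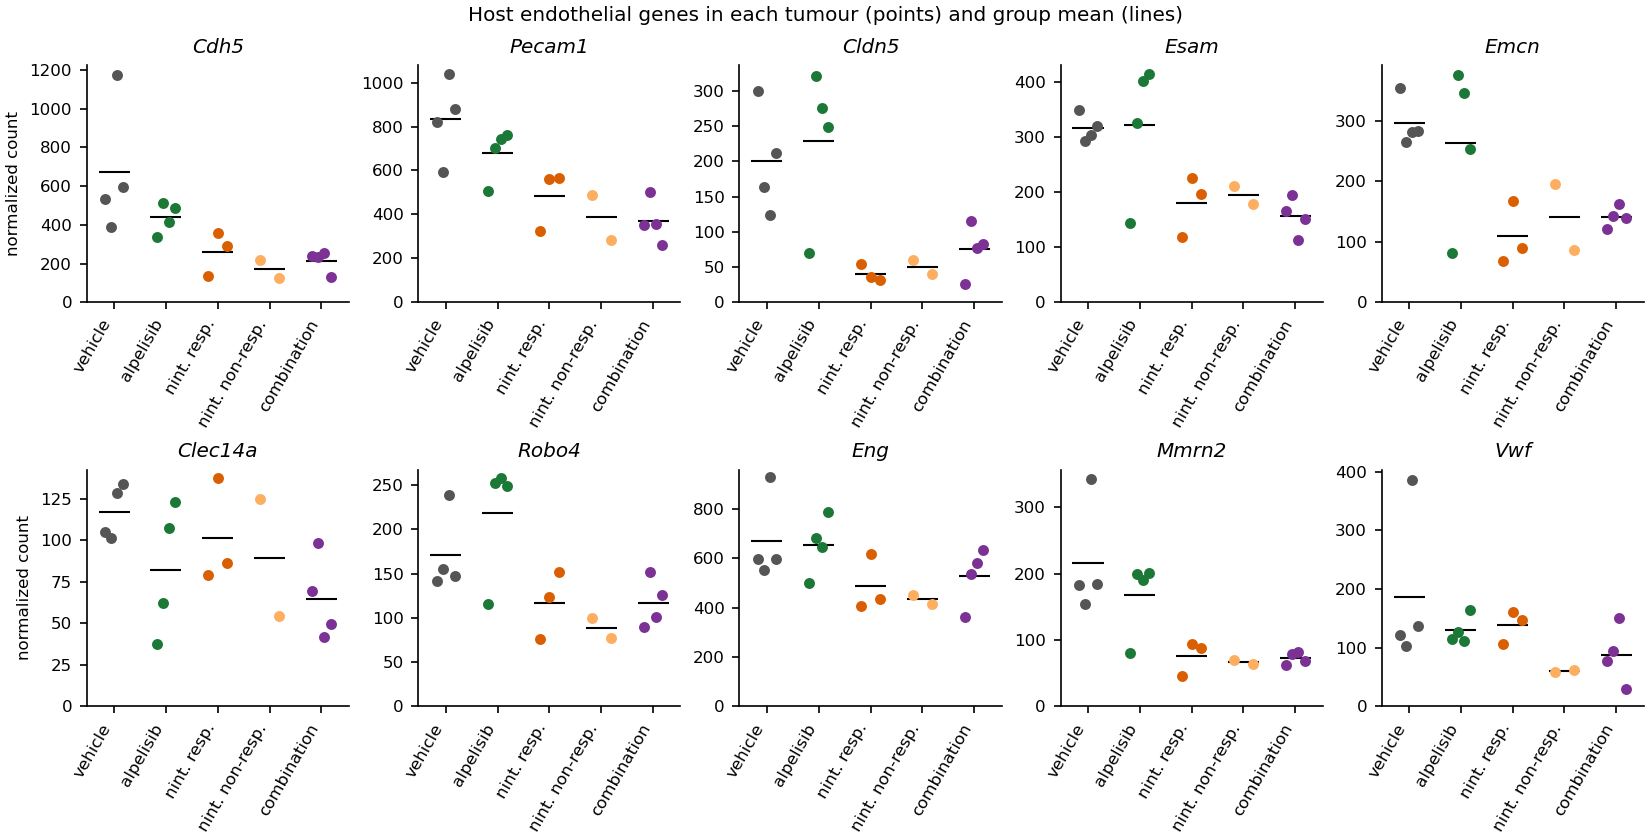
Normalized counts of the 10 genes in each library, by treatment group, with 1 point per library and a line at the group mean. Cldn5 and Mmrn2 are lowest in the nintedanib and combination groups, and Clec14a, Robo4, Eng and Vwf overlap between the nintedanib and vehicle groups.

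Cldn5 encodes claudin-5, the main claudin of endothelial tight junctions. Its normalized count was 300.5, 163.2, 124 and 212.5 in vehicle tumours 1 to 4, and 70.03, 321.7, 275.9 and 248.4 in alpelisib tumours 1 to 4. It was 54.87, 35.57 and 31.19 in the nintedanib responders, 59.38 and 39.91 in the non-responders, and 26.01, 115.7, 77.5 and 82.27 with the combination. Every tumour given nintedanib lay below every vehicle tumour, and only Alpelisib 1 among the tumours without nintedanib reached into their range. The fall with nintedanib across both backgrounds was 1.84 on the log2 scale (SE 0.32, limma adjusted p = 0.00934), a level 72.1% lower, and this was the largest estimate among the 10 genes. Nintedanib alone differed from vehicle by -2.12 (SE 0.44, adjusted p = 0.0700) and the combination by -1.50 (SE 0.46, adjusted p = 0.117), and neither passed by itself.

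Cdh5 encodes VE-cadherin, the adhesion molecule of endothelial adherens junctions. Vehicle tumours 1 to 4 had 536.2, 389.2, 1173 and 593.7 normalized counts, and alpelisib tumours 334.6, 512.3, 416.3 and 488.8. The responders had 135.5, 358 and 291.7, the non-responders 219 and 127, and the combination tumours 237.8, 233.3, 254.6 and 128.4. Vehicle 3, the library richest in Rn45s and Lars2, was the highest by a wide margin, and all tumours with nintedanib lay below the lowest vehicle tumour. Cdh5 fell by 1.31 with nintedanib across both backgrounds (SE 0.24, limma adjusted p = 0.0133), which is 59.7% lower. It also fell by 1.58 with the combination against vehicle (SE 0.35, adjusted p = 0.0415). The change with nintedanib alone, -1.56 (SE 0.33, adjusted p = 0.0806), was of like size and missed the threshold. Without Vehicle 3 the combination's change was -1.27 and no longer passed. When 1 library was left out, this call held only without Vehicle 2.

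Pecam1 encodes PECAM-1, or CD31, an adhesion molecule at endothelial borders that leukocytes and platelets also carry. Vehicle tumours had 820.1, 593, 1040 and 877.7 normalized counts, and alpelisib tumours 504.2, 702.9, 741.8 and 763.1. The responders had 322.4, 558.8 and 567.7, the non-responders 486.2 and 285.4, and the combination tumours 351.2, 503.9, 356.7 and 259.3. All tumours with nintedanib lay below every vehicle tumour, but the highest responder and Vehicle 2 were close, and Alpelisib 1 overlapped with the treated tumours. Pecam1 fell by 0.92 with nintedanib across both backgrounds (SE 0.18, limma adjusted p = 0.0225), 47.1% lower, and by 1.19 with the combination against vehicle (SE 0.27, adjusted p = 0.0433). Nintedanib alone gave -0.93 (SE 0.25, limma adjusted p = 0.236). The call across both backgrounds was lost without Alpelisib 2, Alpelisib 3, Alpelisib 4 or Combination 4. It was also lost when scaled to human plus mouse reads, with responders only, and with replicate number as a block. When 1 library was left out, the call with the combination held only without Vehicle 2 or without Combination 2.

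Esam encodes an adhesion molecule of endothelial tight junctions and platelets. Its normalized count was narrow in vehicle tumours, at 348.7, 292.1, 303.1 and 319.2, and spread from 143.2 in Alpelisib 1 to 326.1, 400.9 and 415.1 in the other alpelisib tumours. The responders had 118.5, 225.5 and 195.7, the non-responders 211.6 and 177.8, and the combination tumours 165.4, 195.1, 113.2 and 150.8. The tumours with nintedanib again lay wholly below the vehicle tumours. The change across both backgrounds was -0.87 (SE 0.20, limma adjusted p = 0.0629) and did not pass; without Alpelisib 1 it was -1.05 and passed.

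Among the receptors and surface glycoproteins, Emcn and Robo4 had lower mean levels with nintedanib, and Eng and Clec14a stood closest to vehicle. None of these 4 genes passed the threshold across both backgrounds, and 3 were lower at an unadjusted p under 0.05. Emcn encodes endomucin, a sialomucin of capillary and venous endothelium. Its normalized count was 354.2, 266, 282.5 and 284.1 with vehicle, 80.93, 376.8, 345.5 and 253.3 with alpelisib, 68.42, 168.1 and 90.46 in the responders, 195.5 and 87.08 in the non-responders, and 120.8, 142.8, 162.4 and 139.6 with the combination. Leaving aside Alpelisib 1, which had the second lowest value of all, the tumours with nintedanib did not overlap with those without it. The change was -1.04 (SE 0.27, limma adjusted p = 0.104), and without Alpelisib 1 it was -1.28 and passed.

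Robo4 encodes an endothelial Roundabout receptor that steadies vessels against VEGF-driven leakage. Vehicle tumours had 142, 154.9, 238.8 and 147.3 normalized counts, alpelisib tumours 115.2, 252.7, 258.3 and 248.4, responders 75.87, 123.3 and 151.3, non-responders 100.2 and 77.4, and combination tumours 89.19, 151.9, 100.9 and 125.9. Of the tumours without nintedanib, 3 alpelisib tumours and Vehicle 3 stood highest, and the nintedanib and vehicle groups overlapped. The change was -0.78 (SE 0.20, limma adjusted p = 0.0978); without Alpelisib 1 it was -0.92 and passed.

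Eng encodes endoglin, a co-receptor for BMP9 and TGF-beta on endothelium that fibroblasts and macrophages can also express. Its normalized count was 595.4, 551.8, 930.1 and 594.6 with vehicle, 499.6, 681, 645.1 and 787.4 with alpelisib, 404.4, 617.9 and 435.1 in the responders, 452.8 and 413.6 in the non-responders, and 361.4, 534.1, 581.9 and 633.2 with the combination. Responder 2 and Combination 4 lay above 3 and 3 of the vehicle tumours respectively, so the groups overlapped. The change was -0.41 (SE 0.16, limma adjusted p = 0.393), with a 95% interval from -0.752 to -0.075.

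Clec14a encodes a C-type lectin of tumour endothelium that binds multimerin-2. Its normalized count was 104.8, 101.6, 128.6 and 134.1 with vehicle, 37.35, 62.07, 107.3 and 123 with alpelisib, 79.25, 137.7 and 86.56 in the responders, 125 and 54.42 in the non-responders, and 69.68, 98.56, 41.82 and 49.86 with the combination. Responder 2 had the highest value of all 17 tumours and Alpelisib 1 the lowest. All 4 combination tumours lay below the vehicle tumours, while the nintedanib group overlapped with them. The change with nintedanib across both backgrounds was -0.31 (SE 0.25, limma adjusted p = 0.786; 95% interval -0.831 to 0.218), and with alpelisib across both backgrounds -0.60 (SE 0.25, adjusted p = 0.322).

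Mmrn2 encodes multimerin-2, an endothelial extracellular matrix glycoprotein that binds Clec14a. Vehicle tumours had 183.3, 154.9, 342.2 and 184.7 normalized counts, and alpelisib tumours 80.93, 200.2, 189.9 and 201.5. The responders had 45.38, 93.51 and 88.12, the non-responders 69.28 and 64.1, and the combination tumours 62.25, 79.46, 82.42 and 68.55. The tumours with nintedanib lay within a narrow band far below the vehicle tumours, and Alpelisib 1 lay inside that band. Mmrn2 was the single one of the 10 genes that passed in all 3 of these comparisons: its change was -1.55 with nintedanib alone (SE 0.30, limma adjusted p = 0.0466), -1.49 with the combination (SE 0.31, adjusted p = 0.0354) and -1.33 across both backgrounds (SE 0.22, adjusted p = 0.00573), the last a level 60.1% lower. The call with nintedanib alone was lost without any 1 of the 9 libraries of that comparison. Without Vehicle 3 the change with nintedanib alone was -1.30 (limma adjusted p = 0.134). When 1 library was left out, the call with the combination held only without Vehicle 2.

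Vwf encodes von Willebrand factor, a clotting glycoprotein stored in endothelial Weibel-Palade bodies and in platelets. Its normalized count was 121.3, 103.5, 385.8 and 137.2 with vehicle, 115.2, 127.6, 112 and 165.1 with alpelisib, 105.7, 160.6 and 147.4 in the responders, 59.38 and 61.68 in the non-responders, and 78.04, 94.54, 151.3 and 29.91 with the combination. Vehicle 3 stood far above every other tumour, and without it the vehicle, alpelisib, nintedanib and combination groups overlapped. The 2 non-responders lay below every vehicle, alpelisib and responder tumour. The change with nintedanib was -0.72 (SE 0.29, limma adjusted p = 0.413) across both backgrounds. Without Vehicle 3 it was -0.51, and without the 4 libraries rich in Rn45s and Lars2 it was -0.22. The combination's difference from vehicle, -1.07 (adjusted p = 0.202), was 0 without those 4 libraries.

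**Figure D3:**
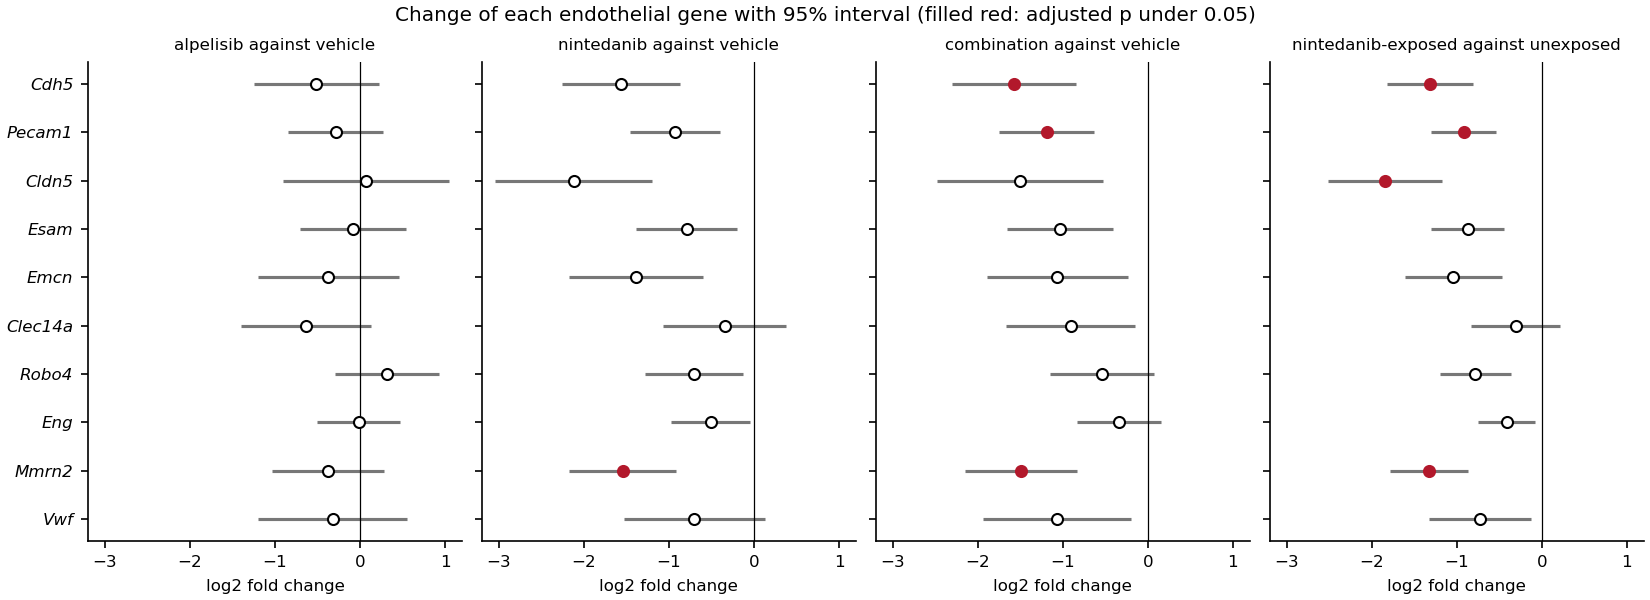
Log2 change and 95% interval of each of the 10 genes against vehicle for alpelisib, nintedanib and the combination, and for nintedanib across both backgrounds. Cldn5, Cdh5 and Mmrn2 lie farthest below 0 with nintedanib, and the alpelisib intervals all include 0.

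Each drug was then compared with the same 4 vehicle tumours, so these comparisons share their controls. With nintedanib alone, 1 of the 10 genes (Mmrn2) fell past the threshold, where 0.144% of all genes were called lower, and 8 of 10 at an unadjusted p under 0.05, compared with 3.59% of all genes. In 6 of the 10 genes every nintedanib tumour lay below every vehicle tumour, which held for 1.52% of all genes. With the combination, 3 of the 10 (Cdh5, Pecam1 and Mmrn2) fell, where 0.38% of all genes were called lower, and 8 of 10 at the unadjusted threshold, compared with 6.87%; 0 of the 10 rose, where 0.397% of all genes were called higher. In 7 of the 10 genes every combination tumour lay below every vehicle tumour, against 4.74% of all genes. The 10 genes had a median log2 change of -0.86 with nintedanib and -1.06 with the combination. When 1 library was left out, nintedanib alone had 0 of the 10 called without any 1 of its own or the vehicle libraries, and the combination had 3 without Vehicle 2, 1 without Combination 2 and 0 without any 1 of the 6 others.

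With alpelisib alone none of the 10 genes passed the threshold: limma called 0, also 0 lower at an unadjusted p under 0.05, and edgeR, limma-voom and DESeq2 each called 0, although DESeq2 gave no adjusted p for 6 of them. The share of all genes called lower by limma was 0%, and 4.52% were lower at the unadjusted threshold. Of all genes, edgeR and limma-voom also called 0, while DESeq2 called 22 lower and 91 higher. The median log2 change was -0.30, and the estimates ran from -0.64 for Clec14a to 0.32 for Robo4. Scaled to the total of human plus mouse reads, all 10 estimates were negative with a median of -0.76, where the median of all genes also moved to -0.44. The intervals were wide: Cdh5 had -1.246 to 0.218 and Cldn5 -0.911 to 1.042. The changes measured with nintedanib alone, -1.56 for Cdh5 and -2.12 for Cldn5, lay outside these intervals. For Cdh5, changes down to -1.246 lay inside its alpelisib interval, which overlapped with its interval for nintedanib alone (-2.256 to -0.867). For no gene did all alpelisib tumours lie below all vehicle tumours, a pattern seen in 3.03% of all genes. Alpelisib 1 was the lowest alpelisib tumour for 9 of the 10 genes. Without it, the median change with alpelisib was 0.02. Across the presence and absence of nintedanib, alpelisib had 0 of the 10 genes called by limma, edgeR, limma-voom and DESeq2 (0.0507% of all genes were called lower by limma), and 1, Clec14a, was lower at an unadjusted p under 0.05 (5.93% of all genes).

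No further change was detectable when alpelisib was added to nintedanib. Combination and nintedanib tumours differed by a median of 0.02, with 5 genes lower and 5 higher. Limma, edgeR, limma-voom and DESeq2 called 0 of the 10, and 0 passed at an unadjusted p under 0.05, where 4.19% of all genes were lower. Of all genes, limma, edgeR and limma-voom also called 0, while DESeq2 called 13 lower and 17 higher. Scaled to the total of human plus mouse reads, the median difference was -0.44, beside -0.45 over all genes. The difference was -0.01 for Cdh5 (95% interval -0.709 to 0.68) and 0.62 for Cldn5 (-0.307 to 1.545), so differences of these sizes in either direction were not resolved. The departure of the combination from the sum of both single drug changes was likewise called for 0 of the 10 genes by limma, edgeR, limma-voom and DESeq2, and for 0 at the unadjusted threshold (2.72% of all genes were lower). Each of these tools also called 0 of all genes for this departure. Against alpelisib alone, the combination had lower means for all 10 genes, with a median of -0.88. Here limma called 0 and edgeR, limma-voom and DESeq2 0, but 6 genes were lower at an unadjusted p under 0.05, compared with 3.65% of all genes. By limma 0.00845% of all genes passed after adjustment. Of all genes, edgeR and limma-voom called 0, and DESeq2 called 21 lower and 1 higher. For Cdh5 and Pecam1 every combination tumour lay below every alpelisib tumour, 2 of the 10 genes against 2.14% of all genes. The 6 genes included Cldn5 at -1.57 (95% interval -2.543 to -0.59) and Mmrn2 at -1.11 (-1.768 to -0.447).

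Responders and non-responders to nintedanib did not separate by the level of these genes. The panel level was 38.1 to 64.2% in the 3 responders and 36.7 to 52.9% in the 2 non-responders, and these ranges overlap. Limma, edgeR, limma-voom and DESeq2 called 0 of the 10 genes. Over all genes limma and edgeR called 0 lower, limma-voom 1 and DESeq2 2, and each called 0 higher. At an unadjusted p under 0.05 by limma, none of the 10 was lower in responders (0.769% of all genes). By the same measure 1 of the 10, Vwf, was higher (1.28% of all genes). Vwf was 105.7, 160.6 and 147.4 in the responders and 59.38 and 61.68 in the non-responders, a difference of 1.15 (SE 0.54, 95% interval 0.025 to 2.28, limma adjusted p = 1). The intervals of the other genes reached from -1.561 to 0.96 for Cldn5 and from -0.411 to 1.479 for Cdh5, and sets of 3 and 2 tumours limit what can be seen. The summed counts of 8 adipocyte genes were 3296 and 3606 in the non-responders and 296 to 767.4 in the responders. All 6 tested adipocyte genes were lower in responders at an unadjusted p under 0.05, with a median of -5.17, and limma called 0 of them after adjustment. All 10 skeletal muscle genes had lower means in responders, with a median of -3.98 and 1 at the unadjusted threshold. The part of these tissues in the endothelial values was not tested.

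The genes differed among themselves in how far they departed from vehicle. Relative to the mean of all 10 genes in the same tumour, the 9 tumours with nintedanib differed from the vehicle tumours by means of -0.78 for Cldn5, -0.50 for Cdh5 and -0.46 for Mmrn2 on the log2 scale, and of 0.63 for Eng, 0.47 for Clec14a and 0.43 for Robo4. By the same measure Robo4 differed from vehicle by 0.54 with alpelisib alone, 0.35 with nintedanib alone and 0.53 with the combination. Clec14a differed by -0.41, 0.72 and 0.16 in the same order, and Eng by 0.21, 0.55 and 0.73. Cldn5 had 0.29, -1.06 and -0.43, Cdh5 -0.29, -0.50 and -0.51, and Mmrn2 -0.16, -0.49 and -0.42. These are descriptions, and the differences between the genes were not tested. Over the 17 tumours the 45 pairs of genes had a median Pearson correlation of 0.73 on the log2 scale, from 0.25 to 0.95. Within the treatment groups, after subtracting each group's mean, the median was 0.57. Over all tumours the pair most alike was Cdh5 and Pecam1 (r = 0.95), and within groups it was Mmrn2 and Robo4 (0.89). Over all tumours Mmrn2 followed the mean of the other 9 genes most closely (r = 0.96), and Clec14a (0.53) and Vwf (0.57) least. All points share their library and size factor, so these correlations describe the libraries and no p is given.

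**Figure D4:**
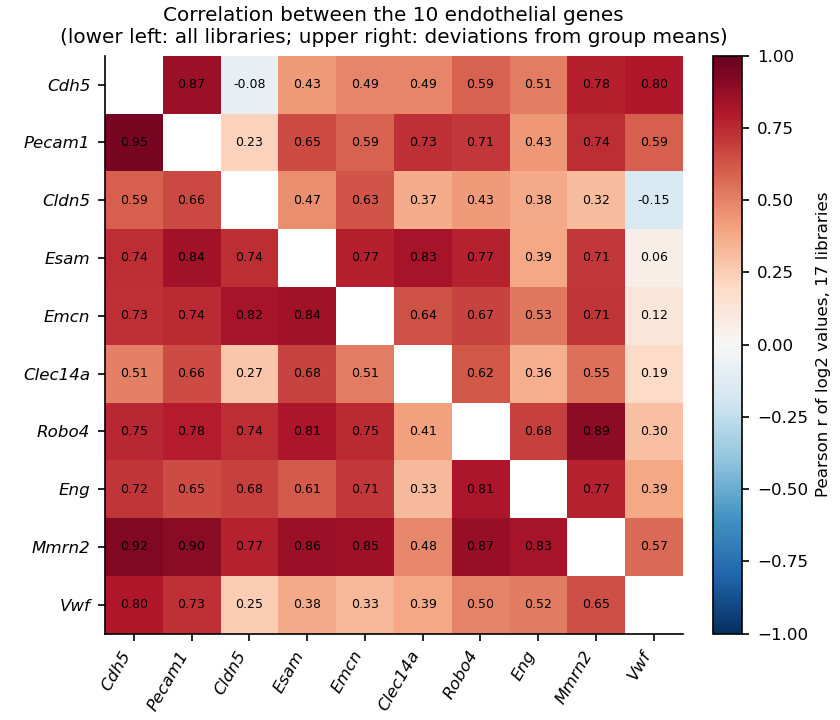
Pearson correlation of log2 normalized counts between each pair of the 10 genes over the 17 libraries (lower left) and of the deviations from the group means (upper right). Over all libraries the highest value, 0.95, is that of Cdh5 with Pecam1 and the lowest, 0.25, that of Vwf with Cldn5; within groups the highest, 0.89, is that of Mmrn2 with Robo4.

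The mouse genes outside the list whose pattern over the 17 tumours was most like the 10 genes were Notch4 (r = 0.96), Tie1 (0.95), Nid2 (0.94), Mcam (0.94), Sparcl1 (0.94), Pcdh12 (0.93), Sez6l2 (0.93) and Fgd5 (0.93), by correlation with the mean of their standardized log2 levels. Notch4, an endothelial Notch receptor, had group means of 269.3 with vehicle, 232.7 with alpelisib, 103.6 with nintedanib and 100.9 with the combination. Nid2, a basement membrane nidogen, had 411.7, 251.4, 88.26 and 96.66 in the same order. Pcdh12, an endothelial protocadherin, had 78.71, 51.45, 18.87 and 19.32. Each of these had its lowest means in the groups with nintedanib, a feature that the choice by likeness brings with it.

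Other markers of endothelium were also lower with nintedanib. Of 30 such genes, 27 were tested, and all 27 had a lower mean with nintedanib across both backgrounds, with a median of -0.77. By limma 5 fell past the threshold, where 0.499% of all genes were called lower. These 5 were Nos3, the endothelial nitric oxide synthase (-1.46, adjusted p = 0.0191), Flt1, the VEGF receptor 1 (-1.23, adjusted p = 0.0273), Tie1, an orphan receptor of the angiopoietin system (-1.11, adjusted p = 0.0111), Myct1 (-1.09, adjusted p = 0.0452) and Arap3, a GTPase-activating protein (-0.81, adjusted p = 0.0133). Kdr, which encodes VEGFR2, a target of the drug, had -1.02 (adjusted p = 0.138). Against vehicle, the combination lowered Nos3 (-1.96, adjusted p = 0.0354) and Podxl, a sialomucin of endothelium (-1.51, adjusted p = 0.0402). The range extended to Cav1, a caveolar coat gene that many stromal cells express, at -0.05. Of 19 tested endothelial transcription factor genes, 2 fell: Bcl6b (-1.75, adjusted p = 0.00561) and Tal1 (-1.03, adjusted p = 0.0176). The median of that list was -0.41, with Erg at -0.97 (adjusted p = 0.124) and Klf2 at 0.60 (adjusted p = 0.246).

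Of the genes that work with the 10 at junctions or as their ligands and co-receptors, 1 passed the threshold, where 0.499% of all genes were called lower. Of 21 tested junction partners, the catenins, zonula occludens proteins and JAMs that other cells also use, limma and edgeR called 0, limma-voom 1 and DESeq2 1. By limma 4 of the 21 were lower at an unadjusted p under 0.05, compared with 4.09% of all genes, and the median was -0.15. F11r, which encodes JAM-A, had the smallest p (-0.74, adjusted p = 0.0580), Ctnnb1, or beta-catenin, had -0.17 and Tjp1, or ZO-1, had -0.27. Of 17 tested ligands, receptors and signalling partners of the 10 genes, 1 fell, Angpt2, the angiopoietin-2 gene that is stored with von Willebrand factor (-1.50, adjusted p = 0.00521), and the median was 0.07. The BMP receptors Acvrl1 and Bmpr2, which signal with endoglin, had 0.13 and 0.07. The Robo4 partner Unc5b had -0.29 and the ligand gene Slit2 had 0.12. Of 4 tested genes of inflamed endothelium limma, edgeR, limma-voom and DESeq2 called 0, with 0 at an unadjusted p under 0.05 and a median of 0.14; Vcam1 had 0.19 and Icam1 0.19.

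**Figure D5:**
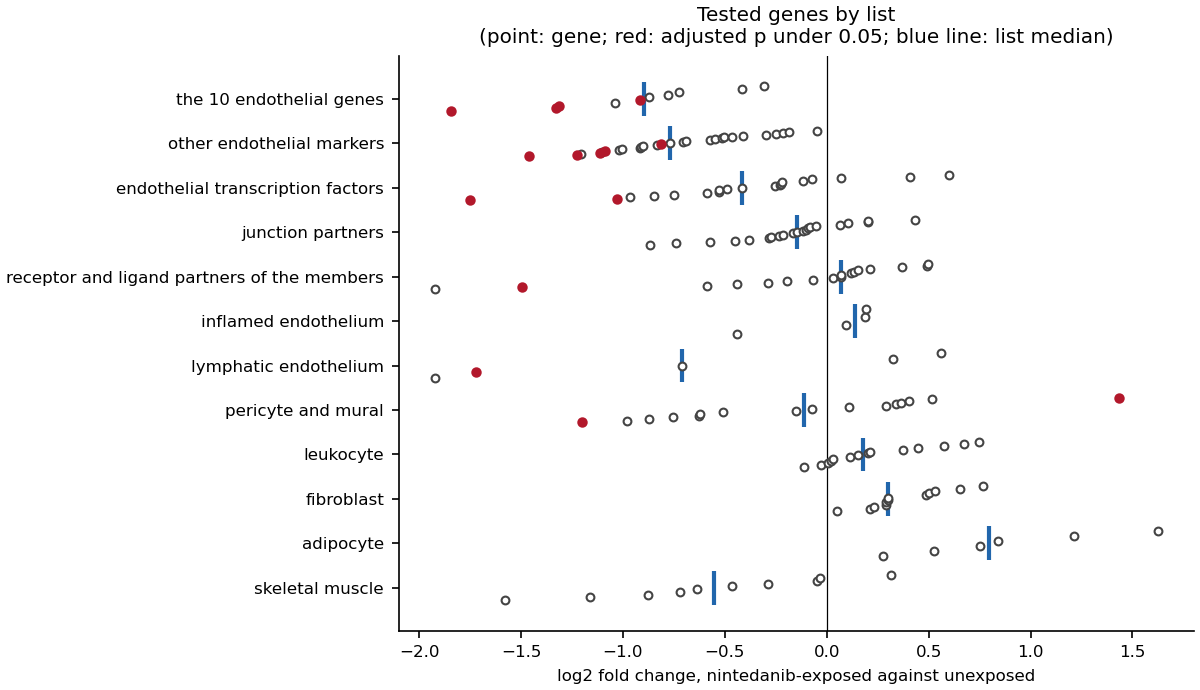
Log2 change with nintedanib across both backgrounds for the tested genes of each list, with 1 point per gene and a line at the median. The 10 genes and the other endothelial markers lie below 0, with medians of -0.89 and -0.77, and the leukocyte and fibroblast lists have medians of 0.18 and 0.30.

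Few markers of other cells in the tumour passed the threshold, in either direction, where 0.499% of all genes were called lower and 0.101% higher. Of 16 tested pericyte and mural cell genes, 1 fell, Mcam, or CD146, which endothelium also expresses (-1.20, adjusted p = 0.0133), and 1 rose, Ndufa4l2, a hypoxia-responsive mitochondrial gene (1.44, adjusted p = 0.0239; 2.49 with the combination against vehicle, adjusted p = 0.0127), with a median of -0.11. Pdgfrb, a target of the drug that marks pericytes, had 0.11 and Rgs5 -0.07. The summed normalized counts of the mural list were 4864 to 7800 with vehicle, 4235 to 9822 with alpelisib, 4349 to 8543 with nintedanib and 7002 to 9267 with the combination. Of 5 tested lymphatic endothelial genes, 1 fell, Flt4, or VEGFR3, which tumour blood vessels also express (-1.72, adjusted p = 0.00201), while Mmrn1 had -1.92 (adjusted p = 0.608), Reln -0.71, Lyve1 0.32 and Pdpn 0.56 (adjusted p = 0.221, the 1 gene higher at an unadjusted p under 0.05). The median of the 5 was -0.71 by limma, -1.72 by edgeR and -0.08 by limma-voom. The lymphatic marker Ccl21a was listed at 0 in all 17 libraries and Prox1, the defining lymphatic factor, in some. The lymphatic sums were 281.3 to 741.7 with vehicle, highest in Vehicle 3, 288.5 to 571.2 with alpelisib, 277.6 to 766.8 with nintedanib and 327.9 to 402.3 with the combination. Without the 4 libraries rich in Rn45s and Lars2, limma called 0 genes in each of these lists, and the other endothelial markers had a median of -0.59. In that fit limma called only 1 of all tested genes lower and 0 higher.

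Of 14 leukocyte genes and 12 fibroblast genes limma, edgeR and limma-voom called 0 with nintedanib, and DESeq2 called 1 leukocyte gene higher. In each list 0 were lower and 3 higher at an unadjusted p under 0.05, and the medians were 0.18 and 0.30. Of all genes 4.09% were lower at that threshold. The share of all genes higher at it was not computed, so counts of higher genes in these lists cannot be set against it. The smallest p values belonged to Cd68, a macrophage gene (0.58, adjusted p = 0.132), and Dcn, the fibroblast proteoglycan decorin (0.77, adjusted p = 0.406). Leukocyte sums were 10876 to 12857 with vehicle, 8322 to 11166 with alpelisib, 8521 to 19712 with nintedanib and 10035 to 13786 with the combination. Fibroblast sums were 39881 to 116172, 31942 to 97010, 44518 to 124305 and 59531 to 115978 in the same order. Among alpelisib tumours, Alpelisib 1 held the lowest fibroblast sum. Of 10 platelet genes, 2 passed the filter on low values and limma called 0, with 1 higher at an unadjusted p under 0.05. That gene, Pf4, had 1.68 (adjusted p = 0.0716; called by DESeq2 only), and the platelet receptor genes Gp9, Gp5 and Gp6 were listed at 0 in 12, 12 and 15 of the 17 libraries. Limma called 0 of 6 adipocyte genes (2 higher at an unadjusted p under 0.05, median 0.80, 1 called by DESeq2) and 0 of 10 skeletal muscle genes (0 at the unadjusted threshold, median -0.55). Adipocyte sums were 3296 and 3606 in nintedanib non-responders 1 and 2 and 105.8 to 966.5 in the 15 other tumours. Skeletal muscle sums ranged from 775.3 to 36392, the highest in non-responder 1. The part of all these other cells in the endothelial values was not tested.

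Human reads for the same genes were few for most of them. Summed over the 17 libraries, human reads made up 0.0584% of the reads assigned to CDH5 or Cdh5 in either species, 1.34% for Pecam1 and 0.738% for Emcn. The exceptions were Vwf, with 67.8% human reads and more human than mouse reads in 16 of 17 libraries, Mmrn2 with 46.3% and Eng with 31.1%. Human VWF had mean normalized counts of 262 (SD 125) with vehicle, 378 (SD 65.2) with alpelisib, 209 (SD 80.4) with nintedanib and 234 with the combination, and human MMRN2 had 94, 147, 120 and 92.5. Mouse Mmrn2 had group means of 216.3, 168.1, 72.08 and 73.17 in the same order. Over the 17 tumours the log2 levels of the human and the mouse gene correlated with r = -0.03 for Mmrn2, 0.01 for Eng and 0.61 for Vwf, and with 0.77 for Cldn5, which had 1 to 25 human reads a library (4.46% of its reads); the 6 other genes lay between -0.52 for Emcn and 0.17 for Cdh5. How far reads of 1 species were counted in the other was not tested.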

How the data were processed

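PolyA RNA of whole tumours was sequenced. Per the series design text, each library was mapped to the human genome and, apart from that, to the mouse genome; Bowtie, TopHat, DESeq2, hg19 and mm10 are named in the submitters' processing notes. The counting program, annotation and strand setting are not given in the sources used here. Signal values, as deposited by the authors, are counts divided by a size factor: dividing each column by its step gave whole reads for every value within 0.001.

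Mouse values were tested with limma 3.58.1 (trend, in R 4.3.3) on log2(value + 1), after a filter on a mean of at least 10 (11831 of 23337 genes), with 5 group means, 9 contrasts and Benjamini-Hochberg adjustment. A fold change on this scale understates the change of low genes. Nintedanib tumours were averaged over responders and non-responders by sample number. edgeR 4.0.16, limma-voom and DESeq2 1.42.0 were run on the recovered reads as alternatives, beside other scalings, pseudocounts and filters, and each library was left out in turn. The fit was tested on simulated data. Intervals are 95%. Within groups, no pair of libraries agreed within sampling noise (lowest chi-square per gene 13.46).

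The 10 genes, the gene lists and the tests were chosen with earlier results of these data known. Of each list, the text names up to 4 tested genes with the smallest p with nintedanib and any gene past the threshold in a contrast, up to 6; other genes named (Kdr, Cav1, Klf2, Reln, Lyve1, Prox1, Ccl21a, the platelet receptor genes, Ctnnb1, Tjp1, Acvrl1, Bmpr2, Unc5b, Slit2, Vcam1, Icam1, Pdgfrb, Rgs5) were named for their known role after their values were seen.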

Additional observations from a re-analysis of the deposited data

Results flagged for a closer look

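Of 40 sets of libraries (10 genes in 4 treatment groups), 7 held a library far from the rest of its group by Dixon's test, which by chance flags about 1 in 20 groups. Alpelisib 1 was the lowest alpelisib library for 3 of these: Mmrn2 at 80.9, Cldn5 at 70.0 and Robo4 at 115.2 normalized counts. Vehicle 3, in which 72.92% of mouse reads fell on Rn45s and Lars2, was the highest vehicle library for 2: Robo4 at 238.8 and Eng at 930.1. Cdh5 at 128.4 was the lowest in the combination group, in Combination 4, and Eng at 617.9 the highest in the nintedanib group, in responder 2.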

How the results depend on the processing

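Of the 10 genes, the number called lower with nintedanib across both backgrounds (4) became 7 with DESeq2, 0 without the 4 libraries rich in Rn45s and Lars2 (chosen after seeing the data; this leaves 13 libraries), and 3 to 7 when 1 library was left out, 7 without Alpelisib 1. Without those 4 libraries, only 1 of all genes was called lower in this comparison and 0 higher. With nintedanib alone against vehicle (1), it became 0 with TMM scaling, scaled to human plus mouse reads, no filter, a minimum mean of 50, limma-voom, responders only, non-responders only or without those 4 libraries, and 2 with edgeR, 3 scaled to mouse reads, 5 with DESeq2 and 0 to 0 on leaving out 1 library; with only the groups compared, the gene called was Cldn5 and not Mmrn2. With the combination against vehicle (3), it became 5 scaled to mouse reads or with DESeq2, 7 scaled to human plus mouse reads, 2 with edgeR, 0 without a filter, with only the groups compared or without those 4 libraries, and 0 to 3 on leaving out 1 library. All genes called lower by the combination rose from 45 to 186 with DESeq2. They rose to 271 scaled to mouse reads and to 399 scaled to human plus mouse reads. Under these scalings the median of all genes moved from -0.02 to -0.30 and -0.48. Against alpelisib (0), the combination had 0 to 1 on leaving out 1 library, 1 (Esam) without Alpelisib 1. Alpelisib across both backgrounds (0) had 4 (Cdh5, Pecam1, Clec14a, Vwf) scaled to human plus mouse reads, a scaling under which 2802 of all genes were called lower against 6 and the median of all genes moved to -0.46. The cause of these differences was not tested.

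No gene among the 10 changed direction in the nintedanib, combination or pooled nintedanib comparisons under the settings run. The median change of the 10 moved by less than 0.471 in every setting. That limit is the SD of single libraries within groups and not the error of a group difference, so smaller moves can still matter. Scaled to human plus mouse reads, the median of the 10 moved from -1.06 to -1.53 for the combination against vehicle. It moved from 0.02 to -0.44 for the combination against nintedanib, and from -0.16 to -0.62 for alpelisib across both backgrounds. For nintedanib across both backgrounds the median of the 10 stayed between -1.02 and -0.77 across settings. There all genes called lower ran from 1 to 175 (main 59) and called higher from 0 to 81 (12). All genes called lower ran from 0 to 73 (17) with nintedanib alone and from 4 to 399 (45) with the combination. With the replicate block, the numbers called lower were 0 for nintedanib, 1 for the combination (Mmrn2) and 3 across both backgrounds (Cdh5, Mmrn2, Cldn5). The correlation of deviations was above 0.1 in 5 of 29 same-numbered pairs and 30 of 85 others. By this count samples with the same replicate number were no more alike, but so few pairs cannot exclude a pairing. The depth of 24 mouse reads or more per gene and library and groups of 4 or 5 tumours limit what can be told apart.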
